A study of Saccharomyces cerevisiae with 12 samples.

Results

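The 40 yeast genes described here carry sulfur from the medium into methionine, S-adenosylmethionine (SAM), cysteine and glutathione, or regulate that flow. They were listed by pathway role and were found on the arrays by open reading frame name. All 40 were among the 6228 genes with a probe on the array and among the 6127 genes that were tested, each through 1 probe printed as 2 spots. Each of the 40 was well above background on all 12 arrays, so no member was lost to the filter on dim probes.

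The study used 12 one-colour Agilent arrays, 3 for each of 4 groups of Saccharomyces cerevisiae cultures, and the labels describe 3 independent experiments. WT_Con was strain BY4741 with an empty vector, and WT_CTR1 was BY4741 over-expressing CTR1, which encodes the high-affinity copper transporter of the plasma membrane. Dctr1_Con was BY4741 with CTR1 deleted and an empty vector, and Dctr1_CTR1D300, called CTR1D300 from here on, was that deletion strain labelled as over-expressing CTR1 delta-300, a truncated form. All cultures had been pre-grown in SC medium lacking leucine and were then kept for 7 h at 30 °C with 0.02 mM CuCl2, a copper excess, so no group shows these genes without added copper. The promoter, the plasmid and the number of clones are not given in the sources used here. CTR1D300 was placed in the deletion strain and full-length CTR1 in the wild type, so construct and host strain differ together.

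In yeast, sulfate is taken up by permeases, activated with ATP, and reduced to sulfite and then to sulfide. Sulfide is joined to a carbon backbone made from aspartate by way of homoserine, which gives homocysteine. Homocysteine is methylated to methionine or passed through cystathionine to cysteine, and cysteine feeds glutathione. Most genes of the route are activated by the transcription factor Met4, which binds DNA through Cbf1, Met28, Met31 and Met32. When sulfur compounds are plentiful, the F-box protein Met30 directs the ubiquitylation of Met4. Met4 and Met30 are also known for the yeast response to cadmium, where the demand for glutathione is high. BY4741 by its genotype lacks MET17, also called MET15, whose enzyme joins sulfide to O-acetylhomoserine, and such strains need an organic sulfur source.

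Values are log2 processed signals minus the 75th percentile of the same array, so that 0 stands for the signal of that percentile, and levels are compared between arrays for 1 gene, never between genes. A fold change is a difference between such log2 values, and "rose", "fell" or "called" refer to an adjusted p under 0.05 in a limma fit over all 6127 genes. The median processed signal per array was 1792 to 2999, 96.5% to 98.9% of probes were well above background, and replicate arrays correlated at 0.992 to 0.998. The strain labels were checked first. The MET17 probe was above background on 0 of 12 arrays, as were those of HIS3 and URA3, which BY4741 also lacks. CTR1 had a mean log2 level of -2.50 in the 3 WT_Con cultures (SD 0.03) and of 4.62 in the 3 WT_CTR1 cultures (SD 0.13), and was not above background on any array of the deletion strain, CTR1D300 included. The labelled over-expression in CTR1D300 was therefore not seen above background by this probe. With both groups below background, the CTR1 signal was still called higher in CTR1D300 than in Dctr1_Con, at 0.96 ± 0.16 (SE, adjusted p = 0.000452). Whether the probe lies in the removed stretch was not tested. LEU2, which BY4741 lacks and which reports on the plasmid only if that carries it, read 6.01, 5.69 and 5.89 in WT_Con, 4.49, 4.14 and 4.42 in WT_CTR1, 5.80, 5.46 and 5.50 in Dctr1_Con and -0.80, -1.43 and -0.14 in CTR1D300. The LEU2 signal was thus lower with either construct, by far the most in CTR1D300, with log2 fold changes of -1.51 ± 0.26 (SE, adjusted p = 0.00341) for CTR1 and -6.38 ± 0.26 (SE, adjusted p = 2.65e-08) for CTR1D300. Its part in the results for the sulfur genes was not tested. Arrays of over-expressing cultures all lay in another column of the slides than their controls, so that column and construct cannot be told apart within a strain. RNA came from whole cultures, so a change in all cells and a larger change in some of them cannot be told apart.

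**Figure D1:**
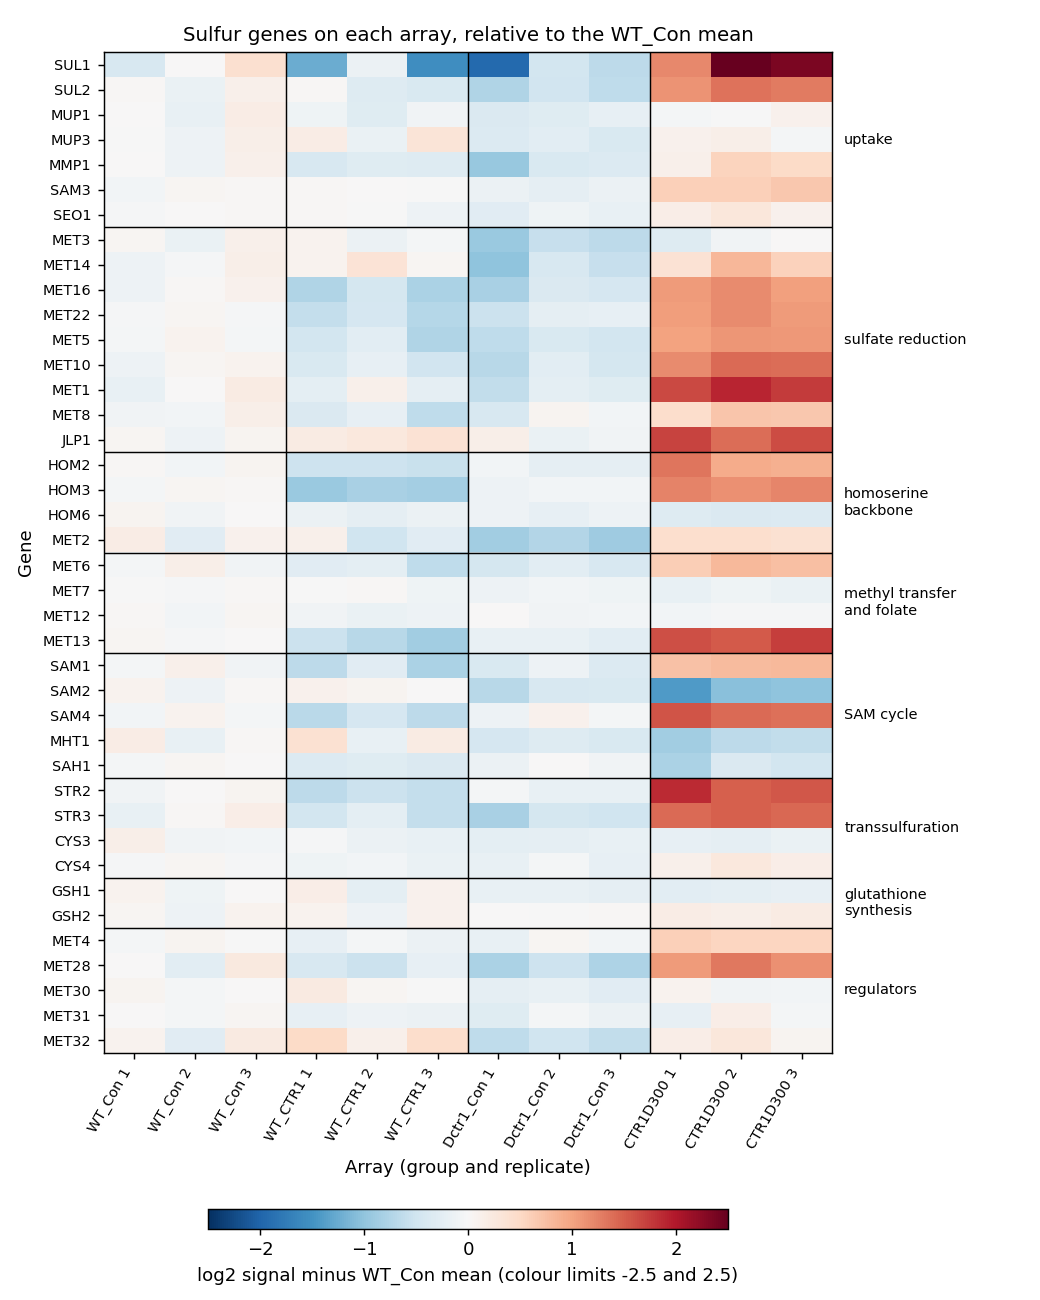
Each row is a sulfur gene, each column an array, and the colour is the log2 signal minus the mean of the 3 WT_Con arrays, with colours limited at -2.5 and 2.5. The CTR1D300 columns are red for most genes of uptake, sulfate reduction and the homoserine backbone and blue for SAM2, SAH1 and MHT1, while the WT_CTR1 and Dctr1_Con columns are mostly pale to mid blue.

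Most of the route was higher with the truncated construct. In CTR1D300 against Dctr1_Con, 30 of the 40 genes rose, 3 fell (HOM6, SAM2 and SAH1) and 7 were not called, beside 24.0% of all tested genes that rose and 30.6% that fell. The median log2 fold change of the 40 was 0.87 (range -0.67 to 3.08), beside a median of -0.05 over all tested genes. At least 2-fold higher were 19 of the 40. The smallest of these 19 changes, SAM1 at 1.07, stood at percentile 96.9 of the fold changes of all tested genes. The 3 CTR1D300 arrays lay above the 3 Dctr1_Con arrays for 31 of the 40 genes and below them for 4, beside 28.0% and 34.9% of all genes. Measured by each of the probe's spots alone, 27 genes rose and 1 fell, beside 38.2% of all genes called in the same direction by both spots. Within slide 1, which held replicate 1 of every group, the median was 0.94, with 33 of 40 genes above 0, and within the slide that held replicates 2 and 3 of the deletion strain it was 0.85, with 34 above 0.

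The CTR1D300 arrays were then set against the other groups. For 26 of the 40 genes (65%), all 3 CTR1D300 arrays lay above every one of the other 9 arrays, beside 19.3% of all genes, and for 4 genes (HOM6, SAM2, MHT1 and SAH1) they lay below all of them, beside 28.4%. Set against the WT_Con arrays alone, the same 26 genes lay above, beside 25.8% of all genes, and 7 lay below, beside 37.8%. MET3, MUP1, MUP3, MET30 and MET32 differ from those 26: they rose against Dctr1_Con, yet their CTR1D300 values overlapped those of WT_Con. CTR1D300 had the highest mean of the 4 groups for 27 of the 40 genes, and Dctr1_Con for 0, beside 33.9% and 11.6% of all genes.

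Full-length CTR1 in the wild type went the other way, by smaller amounts. In WT_CTR1 against WT_Con, 12 of the 40 genes fell and 0 rose, beside 6.02% and 7.25% of all tested genes, by limma with 8 residual degrees of freedom. The median log2 fold change was -0.17 (range -0.99 to 0.34), beside 0.02 over all genes, and 20 of the 40 had an unadjusted p under 0.05, as did 1674 of all 6127 genes. The groups did not overlap for 19 genes that were lower and 1 that was higher in WT_CTR1, beside 13.7% and 17.0% of all genes. Each spot alone gave 9 of the 12 falls, beside 6.07% of all genes called by both spots in 1 direction. The falls of HOM3, MET13, MET16, MET22, SAM4 and STR2 held in every alternative that was run, while those of HOM2, MET5, MET6, SAH1, SAM1 and STR3 missed the threshold in at least 1. With the replicate number as a block, SUL1 (adjusted p = 0.0476), MET10 (0.0117), MET8 (0.0382) and HOM6 (0.0138) also fell, and JLP1 (0.0281) rose. Without WT_CTR1 replicate 2, MET32 was called higher (adjusted p = 0.0389). The median was -0.16 within slide 1 and -0.17 within that of replicates 2 and 3 of the wild type, with 27 and 32 of the 40 genes below 0.

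The empty-vector deletion strain sat slightly below the empty-vector wild type across the route. In Dctr1_Con against WT_Con, 2 of the 40 genes fell (MET2 and MET3) and 0 rose, beside 0.163% and 0.326% of all genes, by limma. The median log2 fold change was -0.26 (range -1.02 to 0.00), beside -0.03 over all genes, 39 of the 40 were below 0, and 26 had an unadjusted p under 0.05, as did 525 of all 6127 genes. For 31 genes all Dctr1_Con arrays lay below all WT_Con arrays, beside 11.3% of all genes, and for 0 they lay above, beside 3.61%. With each spot alone, 0 of the 40 were called by both spots, beside 0.343% of all genes. The count of 2 depended on single arrays. It was 0 without WT_Con replicate 1 or 3, WT_CTR1 replicate 3 or Dctr1_Con replicate 1 or 3, 4 without WT_Con replicate 2, and 1 without Dctr1_Con replicate 2 or any 1 CTR1D300 array. With the replicate number as a block it was 8: MET14 (adjusted p = 0.0227), MET16 (0.0306), MET5 (0.0358), MET10 (0.0265), STR3 (0.0277) and MET28 (0.0443) were called beside MET2 and MET3. Replicate 1 was the sole number with both strains on 1 slide, and there 38 of the 40 genes were below 0, with a median of -0.34. For replicates 2 and 3, slide and strain cannot be told apart. This comparison and that of CTR1D300 share the Dctr1_Con arrays, and this one and that of CTR1 share the WT_Con arrays.

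**Figure D2:**
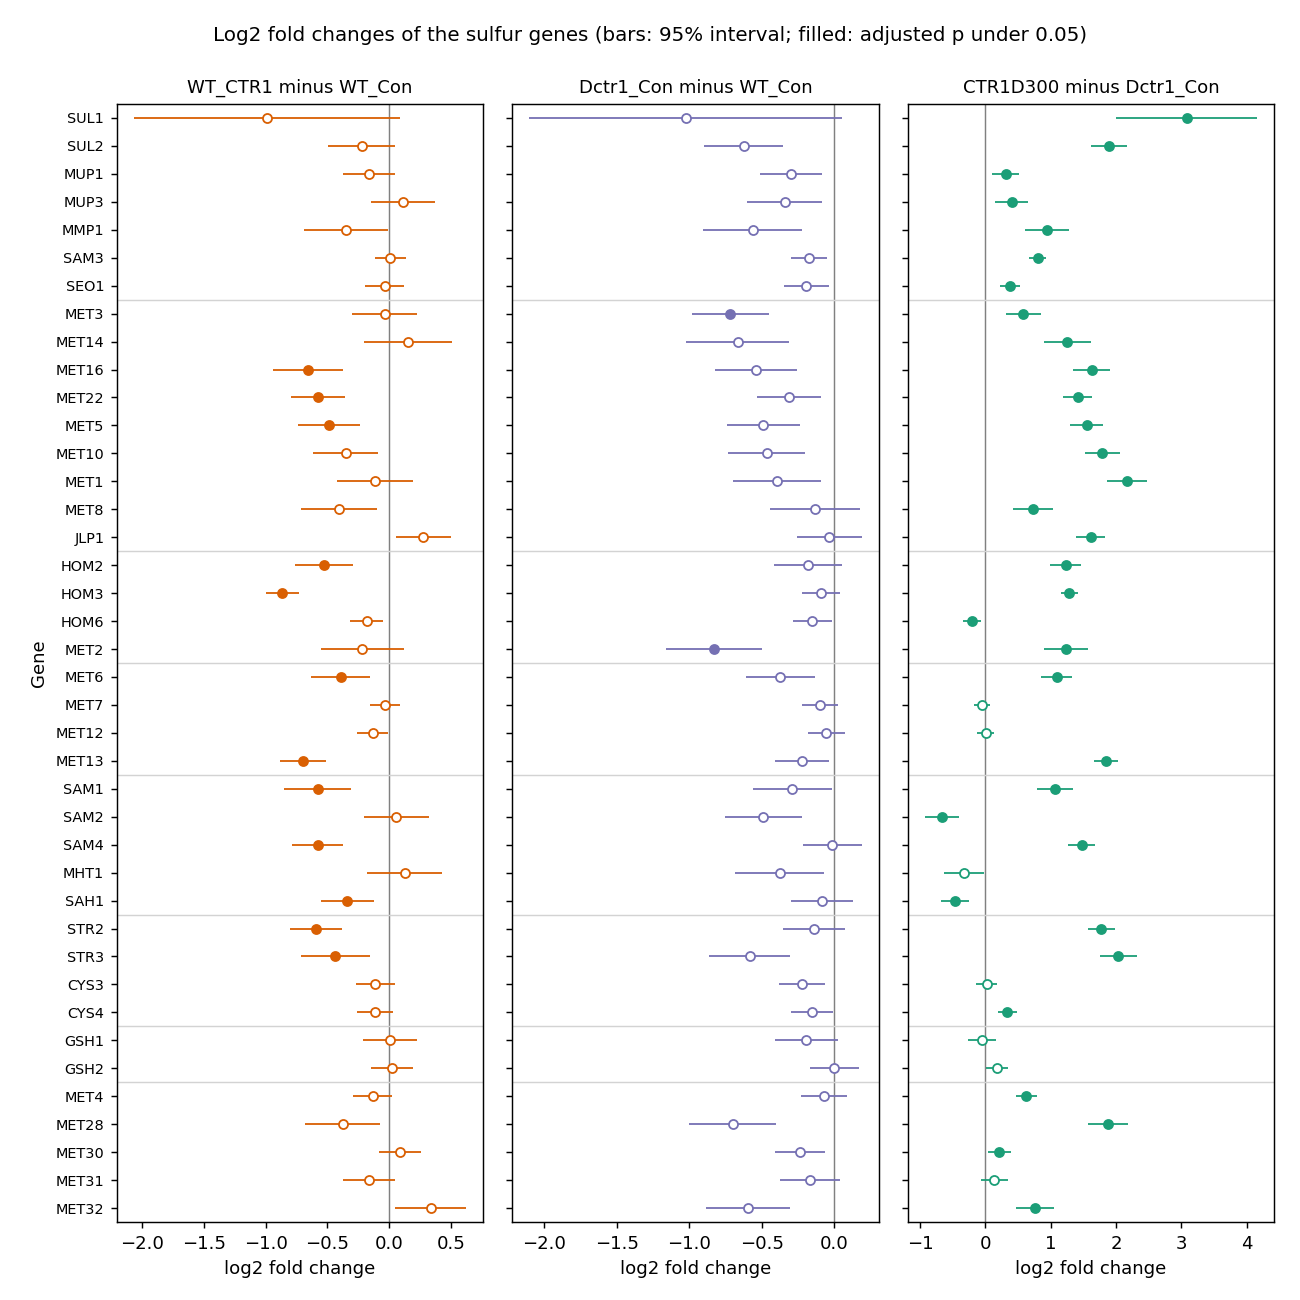
Log2 fold changes of the 40 genes with 95% intervals in the 3 comparisons, grouped by role; filled circles passed an adjusted p under 0.05. Filled circles lie mostly right of 0 for CTR1D300, all left of 0 for CTR1 (12 genes), and number 2 for the deletion.

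Uptake was the step with the largest single change. All 7 transporter genes rose in CTR1D300, and 0 of 7 were called with CTR1 or in the deletion strain by limma, where 1 and 6 had an unadjusted p under 0.05. SUL1 and SUL2 encode the high-affinity sulfate permeases. The SUL1 signal was -5.75, -5.34 and -4.95 in WT_Con, -6.60, -5.50 and -6.90 in WT_CTR1, -7.30, -5.81 and -6.00 in Dctr1_Con and -4.14, -2.73 and -2.99 in CTR1D300. Every CTR1D300 array was above every other array, but SUL1 was also the most scattered gene of the 40 within groups, with a pooled SD of 0.69. Its log2 fold change was 3.08 ± 0.49 (SE, adjusted p = 0.000379) in CTR1D300, and the differences within replicate numbers were 3.16, 3.07 and 3.01. The CTR1 estimate for SUL1 was -0.99 ± 0.49 (SE, adjusted p = 0.224), with within-number differences of -0.85, -0.16 and -1.96. SUL2 read -1.67, -1.87 and -1.58 in WT_Con, -1.67, -2.03 and -2.09 in WT_CTR1, -2.46, -2.18 and -2.34 in Dctr1_Con and -0.57, -0.35 and -0.40 in CTR1D300. The SUL2 arrays of CTR1D300 stood above all others and those of Dctr1_Con below all others. Its rise in CTR1D300 was 1.89 ± 0.12 (SE, adjusted p = 7.47e-07), and its estimate in the deletion strain missed the threshold at -0.62 ± 0.12 (SE, adjusted p = 0.0575). That estimate was called with slide as a fixed block (-0.90, adjusted p = 0.0206) or a random block (-0.74, adjusted p = 0.0258), and without WT_CTR1 replicate 1 (adjusted p = 0.0285).

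The carriers of organic sulfur also rose, with smaller estimates. MUP1, the high-affinity methionine permease, read 2.84, 2.65 and 3.01 in WT_Con, 2.73, 2.53 and 2.75 in WT_CTR1, 2.47, 2.52 and 2.62 in Dctr1_Con and 2.79, 2.82 and 2.93 in CTR1D300. Its CTR1D300 values lay above those of Dctr1_Con but inside the WT_Con range, with a log2 fold change of 0.31 ± 0.10 (SE, adjusted p = 0.0189). The MUP1 call was lost without the arrays of slide 1, without Dctr1_Con replicate 1 or CTR1D300 replicate 3, and with 1 of the spots (0.12, adjusted p = 0.399). MMP1, which carries S-methylmethionine, read -4.67, -4.80 and -4.56 in WT_Con, -5.09, -4.99 and -5.00 in WT_CTR1, -5.62, -5.07 and -5.03 in Dctr1_Con and -4.55, -4.13 and -4.20 in CTR1D300. The lowest CTR1D300 value of MMP1 was just above the highest WT_Con value, and its fold change against Dctr1_Con was 0.95 ± 0.15 (SE, adjusted p = 0.000444). The SAM permease gene SAM3 rose by 0.80 ± 0.06 (SE, adjusted p = 1.29e-06), with values of 2.16, 2.15 and 2.24 in CTR1D300 and of 1.34 to 1.61 on the other 9 arrays. MUP3, the low-affinity methionine permease (0.40 ± 0.12), and SEO1, a putative permease (0.38 ± 0.07), rose by less. Their calls were lost in some settings, MUP3 without slide 1 (adjusted p = 0.123) and SEO1 with 1 spot (adjusted p = 0.151).

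All 9 genes listed under sulfate reduction rose in CTR1D300, with a median log2 fold change of 1.55. The list includes JLP1, which acts on sulfonates and not on sulfate. Of the 9, 7 were at least 2-fold higher, each at percentile 98.1 or above among all tested genes. MET3 encodes ATP sulfurylase, the entry to the route, and MET14 the kinase of the next step. MET3 read -0.75, -0.96 and -0.66 in WT_Con, -0.70, -0.94 and -0.83 in WT_CTR1, -1.71, -1.37 and -1.44 in Dctr1_Con and -1.12, -0.88 and -0.78 in CTR1D300. MET3 was lowest in Dctr1_Con, and of the CTR1D300 arrays 2 lay within the range of the wild-type arrays and 1 below it. Its fold changes were -0.72 ± 0.12 (SE, adjusted p = 0.027) for the deletion and 0.58 ± 0.12 (SE, adjusted p = 0.00219) for CTR1D300. MET14 read -0.72, -0.62 and -0.45 in WT_Con, -0.52, -0.25 and -0.56 in WT_CTR1, -1.60, -1.0 and -1.18 in Dctr1_Con and -0.23, 0.23 and -0.03 in CTR1D300. Here CTR1D300 was above all other arrays, by 1.25 ± 0.16 (SE, adjusted p = 9.04e-05) against its control, although the WT_CTR1 array nearest to it, at -0.25, was only slightly below the lowest CTR1D300 array. MET16, the reductase that turns the activated sulfate into sulfite, read -0.83, -0.69 and -0.60 in WT_Con, -1.46, -1.14 and -1.50 in WT_CTR1, -1.52, -1.08 and -1.13 in Dctr1_Con and 0.36, 0.47 and 0.32 in CTR1D300. WT_CTR1 and Dctr1_Con both lay below WT_Con for MET16, and CTR1D300 lay above. The fold changes of MET16 were -0.66 ± 0.13 (SE, adjusted p = 0.00715) for CTR1 and 1.63 ± 0.13 (SE, adjusted p = 2.57e-06) for CTR1D300.

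MET22 encodes the nucleotidase that removes the nucleotide by-product of that reduction. It read -0.17, -0.11 and -0.18 in WT_Con, -0.75, -0.57 and -0.87 in WT_CTR1, -0.68, -0.38 and -0.35 in Dctr1_Con and 0.89, 1.03 and 0.92 in CTR1D300, so that it was low with full-length CTR1 and high with the truncated construct. Its fold changes were -0.58 ± 0.10 (SE, adjusted p = 0.00371) for CTR1 and 1.41 ± 0.10 (SE, adjusted p = 1.24e-06) for CTR1D300. Sulfite reductase is built from the products of MET10 and MET5, and its siroheme cofactor is made by those of MET1 and MET8. MET10 read 0.48, 0.66 and 0.70 in WT_Con, 0.23, 0.41 and 0.14 in WT_CTR1, -0.09, 0.35 and 0.18 in Dctr1_Con and 1.79, 2.02 and 2.0 in CTR1D300, and MET1 read -0.44, -0.26 and -0.06 in WT_Con, -0.50, -0.13 and -0.48 in WT_CTR1, -0.88, -0.50 and -0.57 in Dctr1_Con and 1.40, 1.65 and 1.49 in CTR1D300. The lowest CTR1D300 array of MET10 read 1.79 and the highest of the other arrays 0.70, and for MET1 these were 1.40 and -0.06. MET1 rose by 2.16 ± 0.14 (SE, adjusted p = 6.45e-07), MET10 by 1.79 ± 0.12 (SE, adjusted p = 9.31e-07) and MET5 by 1.55 ± 0.11 (SE, adjusted p = 1.59e-06). MET8 rose less, by 0.73 ± 0.14 (SE, adjusted p = 0.00135). MET5 was also called lower with CTR1, at -0.49 ± 0.11 (SE, adjusted p = 0.0168), a call that was lost without slide 1, without WT_Con replicate 2 (adjusted p = 0.0655) or WT_CTR1 replicate 3 (0.0518), and with the 2 wild-type groups fitted alone (0.0623).

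JLP1, the dioxygenase that frees sulfite from sulfonates, differed from most of the other reduction genes outside CTR1D300. It read -3.87, -4.04 and -3.86 in WT_Con, -3.72, -3.66 and -3.55 in WT_CTR1, -3.77, -4.09 and -4.01 in Dctr1_Con and -2.23, -2.52 and -2.29 in CTR1D300. Its level in Dctr1_Con was close to that of WT_Con, at -0.03 ± 0.10, while it rose in CTR1D300 by 1.61 ± 0.10 (SE, adjusted p = 5.88e-07). MET8 also overlapped between Dctr1_Con and WT_Con, at -0.13 ± 0.14 (SE, adjusted p = 0.919). MET14 was also above 0 with CTR1, at 0.15 ± 0.16 (SE), and was not called. JLP1 was the gene of the 40 whose WT_CTR1 arrays all lay above the WT_Con arrays, at 0.28 ± 0.10 (SE, adjusted p = 0.101), a difference that was called with the replicate block.

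The backbone genes separated by step. HOM3 encodes aspartate kinase, HOM2 aspartate semialdehyde dehydrogenase, HOM6 homoserine dehydrogenase, and MET2 the acetyltransferase that commits homoserine to methionine. HOM3 read 1.31, 1.40 and 1.38 in WT_Con, 0.43, 0.55 and 0.52 in WT_CTR1, 1.24, 1.30 and 1.30 in Dctr1_Con and 2.60, 2.50 and 2.59 in CTR1D300. The groups of HOM3 were tight, WT_CTR1 lay below all other arrays and CTR1D300 above them, and WT_Con and Dctr1_Con were adjacent. Its fold changes were -0.86 ± 0.06 (SE, adjusted p = 3.7e-05) for CTR1 and 1.29 ± 0.06 (SE, adjusted p = 6.41e-08) for CTR1D300. HOM2 read 4.13, 4.04 and 4.17 in WT_Con, 3.60, 3.59 and 3.56 in WT_CTR1, 4.04, 3.89 and 3.88 in Dctr1_Con and 5.45, 5.04 and 4.99 in CTR1D300. HOM2 had the same order of groups, at -0.53 ± 0.11 (SE, adjusted p = 0.00814) for CTR1 and 1.23 ± 0.11 (SE, adjusted p = 5.2e-06) for CTR1D300, with the CTR1 fall at adjusted p = 0.0519 in 1 of its spots. MET2 read -0.49, -0.96 and -0.56 in WT_Con, -0.55, -1.16 and -0.95 in WT_CTR1, -1.53, -1.41 and -1.56 in Dctr1_Con and -0.25, -0.25 and -0.28 in CTR1D300. For MET2 the lowest group was Dctr1_Con, with -0.83 ± 0.15 (SE, adjusted p = 0.0422) for the deletion and 1.24 ± 0.15 (SE, adjusted p = 6.31e-05) for CTR1D300, and its CTR1 estimate was -0.22 ± 0.15. HOM6 did not rise with its neighbours in the route: it was called lower in CTR1D300 at -0.20 ± 0.06 (SE, adjusted p = 0.0158), with arrays at 2.31 to 2.36 against 2.47 to 2.56 in Dctr1_Con. That small fall missed the threshold without slide 1 (adjusted p = 0.0789), with normexp background (0.0798), with 1 spot (0.069) and without Dctr1_Con replicate 1 (0.0533) or 3 (0.0557) or CTR1D300 replicate 2 (0.0511).

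Methionine synthase, MET6, and the folate reductase MET13 supply the methyl group and its transfer. MET6 read 2.40, 2.60 and 2.36 in WT_Con, 2.16, 2.20 and 1.82 in WT_CTR1, 2.01, 2.18 and 2.04 in Dctr1_Con and 3.06, 3.26 and 3.20 in CTR1D300. Its CTR1D300 arrays stood above all others, with 1.09 ± 0.11 (SE, adjusted p = 1.33e-05), and its fall with CTR1, -0.39 ± 0.11 (SE, adjusted p = 0.0354), missed the threshold without any 1 of 7 arrays (WT_Con replicates 1, 2 and 3, WT_CTR1 replicates 1 and 3, Dctr1_Con replicate 3 and CTR1D300 replicate 3), at adjusted p up to 0.127. MET13 read -1.57, -1.64 and -1.61 in WT_Con, -2.14, -2.31 and -2.48 in WT_CTR1, -1.80, -1.80 and -1.88 in Dctr1_Con and 0.01, -0.07 and 0.11 in CTR1D300. MET13 was near the 75th percentile of the array in CTR1D300 and well below it elsewhere, at 1.85 ± 0.08 (SE, adjusted p = 6.3e-08) for CTR1D300 and -0.70 ± 0.08 (SE, adjusted p = 0.000506) for CTR1. MET12, which encodes the other methylenetetrahydrofolate reductase, was at -0.07 to 0.15 on all 12 arrays, with 0.00 ± 0.06 (SE, adjusted p = 0.966) in CTR1D300. MET7, the folylpolyglutamate synthetase gene, was likewise not called, at -0.05 ± 0.06, and its spots disagreed in sign.

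Within the SAM cycle the members split. SAM1 and SAM2 encode the pair of SAM synthetases, and SAM4 and MHT1 the pair of homocysteine methyltransferases. SAM1 read 2.78, 2.94 and 2.74 in WT_Con, 2.16, 2.54 and 2.02 in WT_CTR1, 2.43, 2.69 and 2.48 in Dctr1_Con and 3.55, 3.61 and 3.63 in CTR1D300, and SAM2 read 1.27, 1.06 and 1.21 in WT_Con, 1.29, 1.24 and 1.18 in WT_CTR1, 0.49, 0.78 and 0.80 in Dctr1_Con and -0.24, 0.13 and 0.18 in CTR1D300. SAM1 rose and SAM2 fell in CTR1D300, with 1.07 ± 0.12 (SE, adjusted p = 4.33e-05) for SAM1 and -0.67 ± 0.12 (SE, adjusted p = 0.000824) for SAM2, and in each case the CTR1D300 arrays lay outside the range of the other 9. The SAM2 fall was carried by 1 of its spots, at -1.07 (adjusted p = 1.9e-05), while the other gave -0.27 (adjusted p = 0.102). How far their probes read each other's transcript was not tested, because probe sequences were not used here. With CTR1, SAM1 fell, at -0.58 ± 0.12 (SE, adjusted p = 0.011), while SAM2 was not called, at 0.06 ± 0.12; the SAM1 fall was lost without slide 1 (adjusted p = 0.121) and with normexp background (0.0695).

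SAM4 read 1.18, 1.33 and 1.20 in WT_Con, 0.57, 0.82 and 0.58 in WT_CTR1, 1.12, 1.34 and 1.20 in Dctr1_Con and 2.82, 2.65 and 2.61 in CTR1D300. It was lowest in WT_CTR1 and highest in CTR1D300, with -0.58 ± 0.09 (SE, adjusted p = 0.00246) for CTR1 and 1.47 ± 0.09 (SE, adjusted p = 5.76e-07) for CTR1D300. MHT1 read -3.31, -3.68 and -3.47 in WT_Con, -3.11, -3.67 and -3.29 in WT_CTR1, -3.91, -3.81 and -3.88 in Dctr1_Con and -4.35, -4.14 and -4.10 in CTR1D300. The MHT1 arrays of CTR1D300 lay below all others, yet the difference from Dctr1_Con was -0.33 ± 0.14 (SE, adjusted p = 0.0638) and was not called. It was called with slide as a fixed block (adjusted p = 0.018) or a random block (0.0292), with the compared groups alone (0.0166) and without WT_CTR1 replicate 1 (0.0432) or 2 (0.0204). SAH1, which hydrolyses the S-adenosylhomocysteine left by methyl transfer, read 2.21, 2.29 and 2.26 in WT_Con, 1.91, 1.95 and 1.88 in WT_CTR1, 2.10, 2.25 and 2.16 in Dctr1_Con and 1.45, 1.88 and 1.79 in CTR1D300. SAH1 was the sole member called lower with both constructs, at -0.34 ± 0.10 (SE, adjusted p = 0.0411) for CTR1 and -0.47 ± 0.10 (SE, adjusted p = 0.00215) for CTR1D300. The CTR1 call of SAH1 was lost without WT_Con replicate 1, 2 or 3, WT_CTR1 replicate 1 or 3, Dctr1_Con replicate 2 or 3 or CTR1D300 replicate 3, at adjusted p up to 0.125, and in 4 other settings.

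Of the 4 transsulfuration genes, 3 rose in CTR1D300. STR2 and STR3 carry cysteine sulfur towards homocysteine, and CYS4 and CYS3 carry homocysteine sulfur towards cysteine. STR2 read -0.71, -0.62 and -0.56 in WT_Con, -1.29, -1.16 and -1.22 in WT_CTR1, -0.68, -0.81 and -0.81 in Dctr1_Con and 1.24, 0.86 and 0.93 in CTR1D300, and STR3 read -3.03, -2.82 and -2.67 in WT_Con, -3.30, -3.09 and -3.44 in WT_CTR1, -3.66, -3.27 and -3.33 in Dctr1_Con and -1.42, -1.34 and -1.41 in CTR1D300. Both were well above all other arrays in CTR1D300, with 1.78 ± 0.10 (SE, adjusted p = 2.03e-07) for STR2 and 2.03 ± 0.13 (SE, adjusted p = 5.64e-07) for STR3, and both fell with CTR1, with -0.59 ± 0.10 (SE, adjusted p = 0.00266) for STR2 and -0.44 ± 0.13 (SE, adjusted p = 0.0446) for STR3. The STR3 call with CTR1 was lost without WT_Con replicate 2 or 3, WT_CTR1 replicate 1 or 3, Dctr1_Con replicate 3 or any 1 CTR1D300 array, at adjusted p up to 0.164. CYS3 read 2.40, 2.17 and 2.19 in WT_Con, 2.23, 2.11 and 2.07 in WT_CTR1, 2.0, 2.03 and 2.06 in Dctr1_Con and 2.05, 2.02 and 2.08 in CTR1D300, which overlapped between Dctr1_Con and CTR1D300. CYS3 was not called in CTR1D300, at 0.02 ± 0.07 (SE, adjusted p = 0.829) with a 95% interval of -0.14 to 0.18, and its spots disagreed, at 0.25 and -0.21. CYS4 rose by 0.33 ± 0.07 (SE, adjusted p = 0.00153), from 2.44 to 2.60 in Dctr1_Con to 2.77 to 2.92 in CTR1D300.

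Of the 2 genes of glutathione synthesis, 0 were called by limma in any of the comparisons, and 1 had an unadjusted p under 0.05, in CTR1D300. GSH1, the gene for the first and limiting enzyme, read -0.22, -0.40 and -0.29 in WT_Con, -0.13, -0.55 and -0.20 in WT_CTR1, -0.48, -0.48 and -0.52 in Dctr1_Con and -0.56, -0.55 and -0.51 in CTR1D300. The CTR1D300 and Dctr1_Con arrays of GSH1 interleaved, with -0.05 ± 0.10 (SE, adjusted p = 0.71) and a 95% interval of -0.26 to 0.17. GSH2, glutathione synthetase, was 0.57 to 0.60 in Dctr1_Con and 0.72 to 0.79 in CTR1D300, which do not overlap. Its difference of 0.18 ± 0.08 (SE, adjusted p = 0.0716) was called in 8 of 26 alternatives. Among these were the replicate block (adjusted p = 0.0159), quantile normalization (0.0191) and the authors' table (0.0212).

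Of the regulators, 4 of 5 rose in CTR1D300 and 0 of 5 were called with CTR1 or in the deletion strain by limma, where 2 and 3 had an unadjusted p under 0.05. MET4 read -0.77, -0.66 and -0.73 in WT_Con, -0.93, -0.76 and -0.87 in WT_CTR1, -0.91, -0.67 and -0.79 in Dctr1_Con and -0.13, -0.19 and -0.18 in CTR1D300. MET4 was higher on every CTR1D300 array than on any other, at 0.62 ± 0.07 (SE, adjusted p = 4.59e-05). MET28, the bZIP cofactor, read -0.04, -0.30 and 0.21 in WT_Con, -0.45, -0.57 and -0.24 in WT_CTR1, -0.84, -0.56 and -0.82 in Dctr1_Con and 1.02, 1.28 and 1.1 in CTR1D300. MET28 had the largest rise among the regulators, 1.87 ± 0.14 (SE, adjusted p = 1.59e-06), and was lowest in Dctr1_Con, at -0.70 ± 0.14 (SE, adjusted p = 0.0552), a difference that was called with the replicate block (0.0443). MET32 and MET31 encode related zinc-finger partners of Met4. MET32 read -3.55, -3.92 and -3.41 in WT_Con, -3.16, -3.51 and -3.19 in WT_CTR1, -4.27, -4.13 and -4.25 in Dctr1_Con and -3.46, -3.35 and -3.56 in CTR1D300. It rose in CTR1D300 by 0.76 ± 0.13 (SE, adjusted p = 0.00067), from a Dctr1_Con level below all other arrays, and reached the range of WT_Con and WT_CTR1. MET31 was not called, at 0.14 ± 0.09 (SE, adjusted p = 0.236). MET30, the F-box gene, read 0.68, 0.57 and 0.62 in WT_Con, 0.85, 0.66 and 0.61 in WT_CTR1, 0.40, 0.44 and 0.33 in Dctr1_Con and 0.71, 0.53 and 0.56 in CTR1D300. The MET30 rise was 0.21 ± 0.08 (SE, adjusted p = 0.0369), the smallest of the 30. It was lost without slide 1 (adjusted p = 0.119), with 1 spot (0.0752) and without WT_Con replicate 3 (0.0506), Dctr1_Con replicate 1 (0.0753) or 3 (0.118) or CTR1D300 replicate 1 (0.124) or 3 (0.0555).

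**Figure D3:**
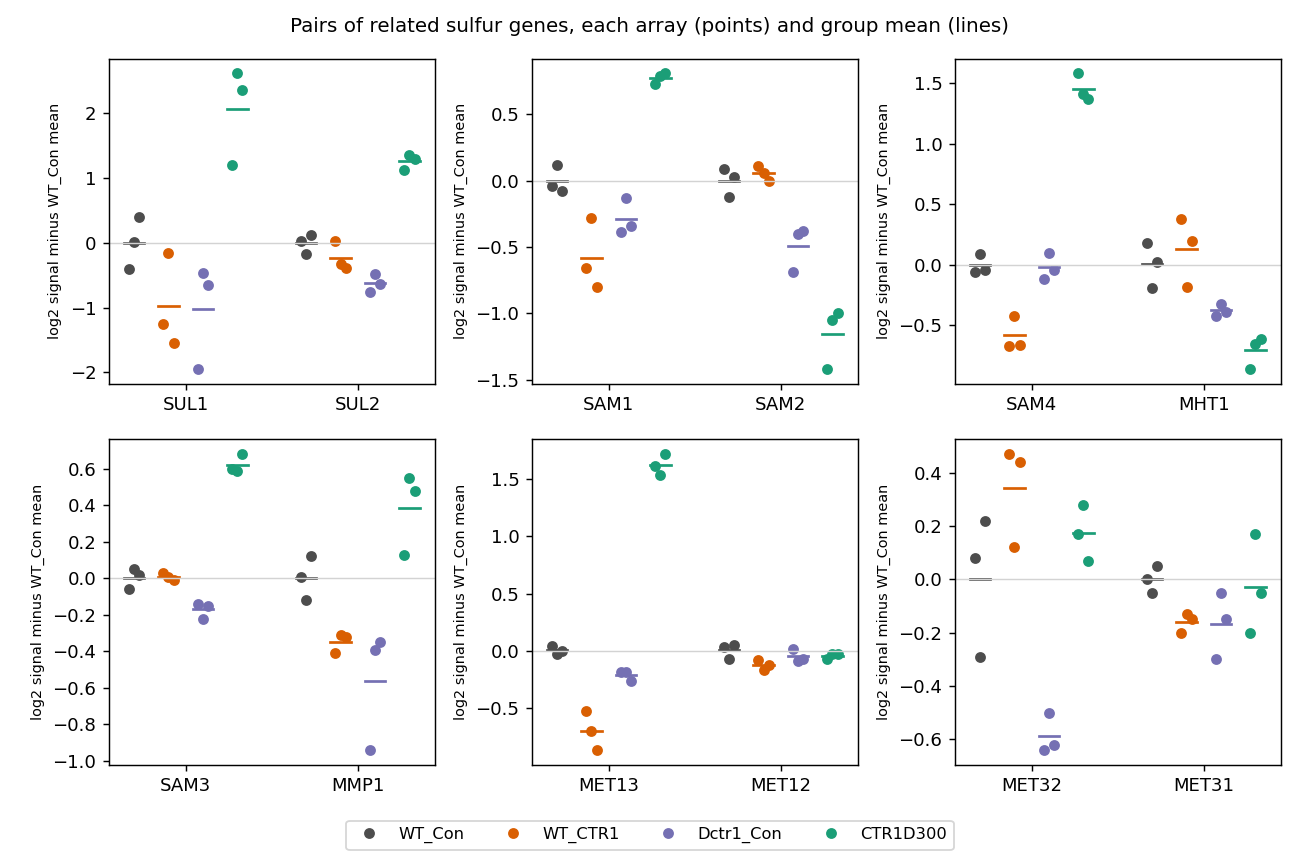
Points are single arrays and lines group means, as log2 signal minus the WT_Con mean, for 6 pairs of related genes. In CTR1D300 (green) SUL1 and SUL2, and SAM3 and MMP1, were both high, while SAM1 was high and SAM2 low, SAM4 high and MHT1 low, and MET13 high with MET12 near 0.

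The constructs were then compared with each other, as the CTR1D300 change in the deletion strain minus the CTR1 change in the wild type. This difference was called positive for 27 of the 40 genes and negative for 1 (SAM2), beside 19.7% and 26.7% of all tested genes, with a median of 1.12 against -0.07 over all genes. Each spot alone gave 26 positive and 1 negative, beside 38.1% of all genes. All 9 genes listed under sulfate reduction and 6 of 7 transporter genes were among the 27, MUP3 being the transporter that was not. SUL1 had the largest difference, 4.07 ± 0.69 (SE, adjusted p = 0.00086), and HOM3 one of the most precise, 2.15 ± 0.08 (SE, adjusted p = 5.82e-08). The negative difference of SAM2 was -0.73 ± 0.17 (SE, adjusted p = 0.00542). SAH1, which fell with both, differed by -0.13 ± 0.14 (SE, adjusted p = 0.471), with a 95% interval of -0.43 to 0.17. The negative count was 2 instead of 1 without WT_Con replicate 1 or WT_CTR1 replicate 2, when MHT1 was called as well (adjusted p = 0.0493 and 0.00828). The column of the slide cancels in this difference if its effect adds equally in both strains, but host strain and construct remain tied together.

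Of the 12 genes that fell with CTR1, 11 rose with CTR1D300, which is 91.7% of the 12 and 36.7% of the 30 that rose. As 30 of all 40 genes rose with CTR1D300, a high share was already given for any part of the list. Whether the falls and rises are linked within the list was not tested. The groups compared share no arrays, but the spread of each gene was estimated from all 12 arrays for both comparisons. Over all tested genes, 198 of the 369 that fell with CTR1 (53.7%) rose with CTR1D300, which is 13.5% of the 1468 that rose. The 11 genes were MET16, MET22, MET5, HOM2, HOM3, MET6, MET13, SAM1, SAM4, STR2 and STR3.

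**Figure D4:**
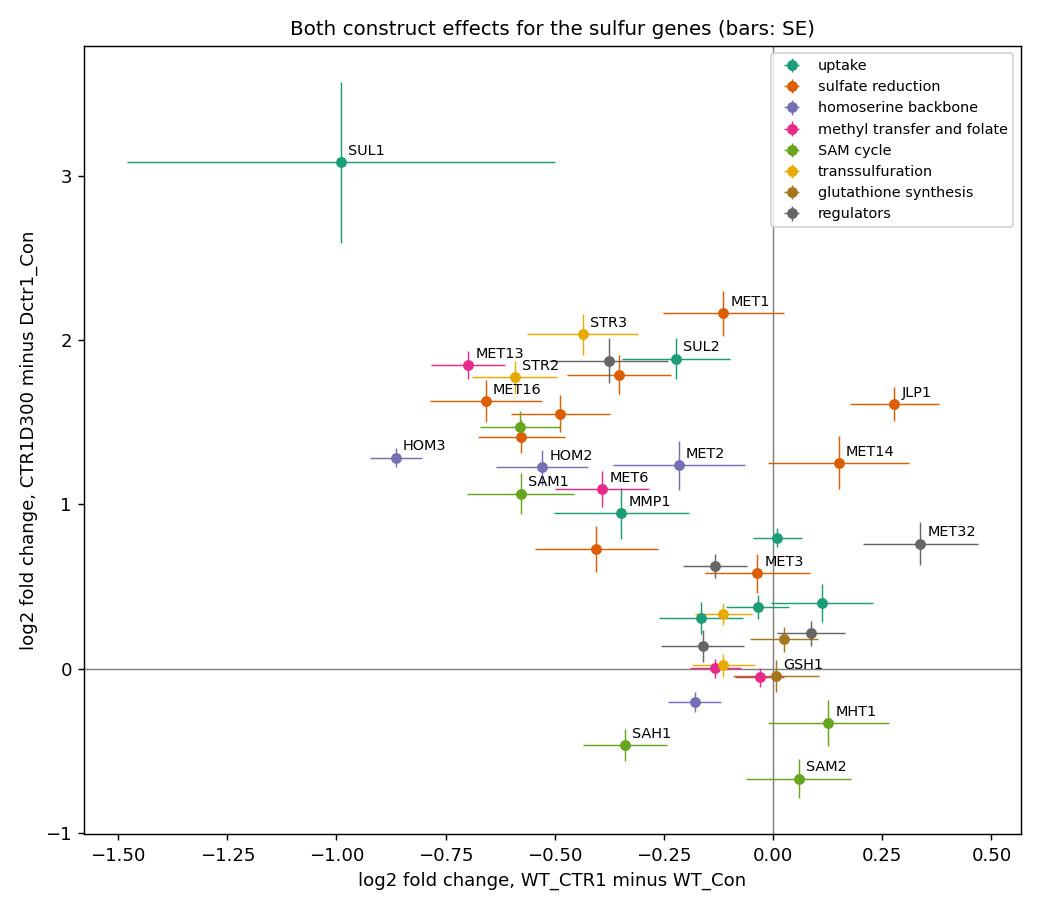
Each point is 1 of the 40 genes, with its CTR1 log2 fold change across and its CTR1D300 log2 fold change up, bars showing the SE and colours the role. Most points lie up and to the left, from HOM3 and MET13 at the left to SUL1 at the top, while SAM2 and SAH1 lie below 0 on the vertical axis.

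The wider pathway was read from 41 further genes, of which 40 were tested and MET17 was not. Their counts stand beside the same shares of all tested genes as above, which are 24.0% higher and 30.6% lower for CTR1D300 and 7.25% higher and 6.02% lower for CTR1. Of 8 other sulfur transport and metabolism genes, 6 rose and 0 fell in CTR1D300, and 3 fell and 0 rose with CTR1. IRC7, a carbon-sulfur lyase, was called in both, at -0.77 ± 0.09 for CTR1 and 1.26 ± 0.09 for CTR1D300. SSU1, the sulfite exporter, rose by 1.14 ± 0.10 (SE, adjusted p = 6.41e-06) in CTR1D300, and the transporter OPT1, which carries glutathione, by 1.12 ± 0.09 (SE, adjusted p = 3.94e-06). OPT1 (-0.39 ± 0.09) and BDS1 (-0.22 ± 0.05), an alkylsulfatase gene, fell with CTR1, as did SSU1 with the replicate block (adjusted p = 0.00864). The CTR1 falls of OPT1 and BDS1 were each called by 1 spot only. The other spot gave -0.16 (adjusted p = 0.333) for OPT1 and -0.18 (0.056) for BDS1. Of 5 partners of Met4 and of the Met30 ubiquitin ligase, 1 fell in CTR1D300: CBF1, the DNA-binding partner, at -0.46 ± 0.10 (SE, adjusted p = 0.00336). The CBF1 spots gave -0.67 (adjusted p = 0.000419) and -0.25 (0.0581). CDC53, the cullin, was the 1 called higher with CTR1, at 0.33 ± 0.10 (SE, adjusted p = 0.0448), with spots of opposite sign, and with the replicate block CBF1 was called lower with CTR1 (adjusted p = 0.00967).

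Of 12 tested genes listed under glutathione use, 3 rose and 6 fell in CTR1D300, a share of rises near that of all genes. The list includes YAP1, which encodes a transcription factor and was 1 of the 3 rises, at 0.17 ± 0.06 (SE, adjusted p = 0.0255). With CTR1, 0 of the 12 were called by limma (3 had an unadjusted p under 0.05). With the replicate block 3 were called with CTR1: GTT1 higher (adjusted p = 0.00202), and GLR1 (0.0498) and YAP1 (0.0476) lower. The glutaredoxin genes GRX2 and GRX1 fell, at -1.05 ± 0.15 (SE, adjusted p = 0.000165) and -0.87 ± 0.13 (SE, adjusted p = 0.000314), while the peroxidase gene GPX2 rose by 0.81 ± 0.10 (SE, adjusted p = 4.72e-05). In methionine salvage and polyamine synthesis 5 of 8 rose in CTR1D300 and 0 fell, led by ADI1 (0.80 ± 0.16), the salvage dioxygenase, MEU1 (0.65 ± 0.10), the methylthioadenosine phosphorylase, and MRI1 (0.29 ± 0.11), the isomerase that follows it. The rises of MEU1 and MRI1 were each called by 1 spot only. The other spot gave 0.26 (adjusted p = 0.0638) for MEU1 and 0.15 (0.196) for MRI1. With CTR1 0 of 8 were called by limma, 3 of them with an unadjusted p under 0.05. With the replicate block UTR4 (adjusted p = 0.0199), SPE2 (0.0223) and SPE3 (0.0416) were called lower with CTR1, MDE1 (0.0146) higher and SPE3 (0.0222) lower with CTR1D300, and MRI1 (0.0475) positive in the difference between constructs.

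In the branches that share precursors with methionine the signs were those of HOM3 and HOM2. Both threonine genes fell with CTR1 and rose with CTR1D300: THR1, homoserine kinase, at -0.45 ± 0.09 and 0.57 ± 0.09, and THR4, threonine synthase, at -0.52 ± 0.10 and 0.59 ± 0.10. The CTR1 fall of THR1 missed the threshold in 1 spot (-0.36, adjusted p = 0.0543). Of 5 one-carbon folate genes, 3 fell with CTR1 (MTD1 at -0.58 ± 0.15, ADE3 at -0.44 ± 0.07 and SHM1 at -0.37 ± 0.07) and 3 rose with CTR1D300 (SHM2 at 0.70 ± 0.16, MIS1 at 0.48 ± 0.15 and ADE3 at 0.45 ± 0.07). The CTR1 falls of MTD1 and SHM1 were each called by 1 spot only, with the other spot at -0.20 (adjusted p = 0.38) for MTD1 and -0.12 (0.194) for SHM1. In CTR1D300, where neither was called, the spots of both had opposite signs. With the replicate block SHM2 was also called lower with CTR1 (adjusted p = 0.0389). All 5 had a called positive difference between the constructs. In the deletion strain 0 of these 40 further genes were called by limma against WT_Con, and 7 had an unadjusted p under 0.05, while GTT1 was called lower with the replicate block (adjusted p = 0.0224).

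On the chromosomes, MHT1 lies next to MMP1 and SAM3 next to SAM4, each pair coupling a methyltransferase with the permease for its substrate. SAM3 and SAM4 both rose in CTR1D300, while MMP1 rose and MHT1 was not called, with its arrays below all others. No member overlaps another gene in the annotation used for names.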

How the data were processed

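RNA of 12 yeast cultures was hybridised to 12 one-colour Agilent arrays of design 016322. The authors extracted spot values from the scans with Feature Extraction 10.7.1.1, per the file headers, and the deposited processed signal is an intensity per spot, background-subtracted and detrended, not scaled between arrays. The deposited flags mark spots that are well above background, saturated or outliers. The authors also deposited a table of log2 values for 5191 gene probes, used as an alternative.

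From these, each probe's 2 spots were averaged as log2 processed signals, and the 75th percentile over the 6256 gene probes of each array was subtracted. A probe was kept if flagged well above background on 3 or more arrays (6155 were, and 101 were left out), the brightest probe stood for a gene, and 6127 genes were tested with limma 3.58.1 in R 4.3.3, with 1 mean per group, 8 residual degrees of freedom and Benjamini-Hochberg adjustment over all genes of a comparison. Groups came from the labels. Symbols came from a RefSeq gene table of assembly R64, and no coordinates are given since the array annotation names another assembly. The fit was tested on simulated data.

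The labels describe 3 independent experiments. Deviations of arrays with the same replicate number correlated across genes at 0.750, 0.692 and 0.342 (CTR1), 0.679, 0.699 and 0.394 (CTR1D300) and 0.554, 0.295 and 0.134 (deletion). Those with different numbers ranged from -0.685 to 0.305. Deviations were taken from each group's mean, so positive same-number values by construction push the different-number values down. That contrast is therefore partly built in. In the deletion comparison the value for Dctr1_Con replicate 3 and WT_Con replicate 2 (0.264) exceeded that for replicate 3 of both groups (0.134). Same-number arrays of the construct comparisons also shared a slide. The numbers were taken as a possible pairing. The main fit did not use it, and results that change with the number as a block are given as well. P-values rest on the spread between the 3 cultures per group, pooled over all 4 groups and moderated across genes by limma.

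The 40 genes and the further pathway lists were chosen with earlier results of these data known, so the lists got no test of their own. Per-array values are given for 20 genes picked by role and, per comparison, for up to 8 called genes with the largest fold change whose groups do not overlap; of each further list, up to 3 called genes per comparison are named. Alternatives were other scalings and background corrections, stricter or no filters, single spots, the authors' table, replicate number or slide as a block, single comparisons fitted alone and leaving out each array. The number of arrays limits the precision. A planned search of promoters was not run, since no sequence was used here.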

Additional observations from a re-analysis of the deposited data

Results flagged for a closer look

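For 28 of the 40 genes the change with CTR1D300 in the deletion strain differed from the change with CTR1 in the wild type by limma's test of the difference itself. Values are log2 differences, and each call rests on 3 arrays per group. Among the transporter genes the difference was 4.07 for SUL1, 2.11 for SUL2, 1.29 for MMP1, 0.79 for SAM3, 0.47 for MUP1 (adjusted p = 0.0159) and 0.41 for SEO1 (adjusted p = 0.00707). In sulfate reduction it was 2.29 for MET16, 2.28 for MET1, 2.14 for MET10, 2.04 for MET5, 1.99 for MET22, 1.33 for JLP1, 1.14 for MET8, 1.1 for MET14 and 0.62 for MET3 (adjusted p = 0.0134). Among the backbone and methyl-transfer genes it was 2.55 for MET13, 2.15 for HOM3, 1.76 for HOM2, 1.49 for MET6 and 1.45 for MET2. In the SAM cycle it was 2.05 for SAM4, 1.64 for SAM1 and -0.73 for SAM2 (adjusted p = 0.00542), the 1 negative value. In transsulfuration it was 2.47 for STR3, 2.37 for STR2 and 0.45 for CYS4 (adjusted p = 0.0028), and among the regulators 2.25 for MET28 and 0.76 for MET4. LEU2 differed as well, by -4.87 ± 0.36 (SE), and its part in these differences was not tested.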

How the results depend on the processing

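Of 33 calls in CTR1D300, 27 held in every alternative (all but HOM6, MET30, MUP1, MUP3, SAM2 and SEO1), as did 27 of the 28 differences between constructs (all but MUP1), 6 of the 12 CTR1 calls and 0 of the 2 deletion calls. Calls and counts moved as follows, and the cause was not tested. Of the 12 CTR1 falls, MET5, MET6, SAM1 and STR3 were lost without slide 1. With slide as a fixed block, HOM6, MET10, MET8, MMP1 and SUL1 were called lower with CTR1 as well. Positive differences between constructs were added in some settings, among them MET31 (adjusted p = 0.041) and MET32 (0.00967) with the authors' table. With quantile normalization MET32 was added (0.0097). Genes higher with CTR1, 0 in the report, numbered 1 with the replicate block, with slide as a fixed or random block and with the higher-numbered spot, and 2 with the lower-numbered spot. Genes lower in CTR1D300, 3 in the report, numbered 5 with the higher-numbered spot. Genes lower in the deletion strain, 2 in the report, numbered 8 with the replicate block, 5 with slide as a fixed or random block, 4 with the higher-numbered spot, 1 with normexp background and quantile normalization, and 0 with the lower-numbered spot, without slide 1 or with the compared groups alone. Negative differences between constructs, 1 in the report, numbered 2 with slide as a fixed or random block, and the median difference of 1.12 was 0.95 with the authors' table, which holds 38 of the 40 genes. Leaving out 1 array gave 0 to 1 genes higher and 8 to 14 lower with CTR1, 28 to 31 higher and 2 to 4 lower with CTR1D300, 0 to 4 lower in the deletion strain, and 1 to 2 negative differences with a median of 0.97 to 1.23. With the replicate block the pairing changed no other call of these genes than those given in the report and that of MET31, whose difference between constructs of 0.30 was then called (adjusted p = 0.0373). Counting a change of sign as a reversal where either value was called, 4 of 4112 gene values reversed, all with the higher-numbered spot: MET7 with CTR1 (-0.03 to 0.23), SAM2 with CTR1 (0.06 to -0.38), MET7 with CTR1D300 (-0.05 to 0.16) and CYS3 with CTR1D300 (0.02 to -0.21). A further 49 changed sign with neither value called. The spots of a probe gave opposite signs for 11 of the 40 genes with CTR1, 3 with CTR1D300, 3 in the deletion strain and 1 in the difference between constructs. Calls that differ between the spots (among others MUP1, SEO1, SAM2, CYS3 and MET7, and MET1 and SUL2 with CTR1) are limited by 1 probe per gene.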
